A study of Homo sapiens with 6 samples.

Results

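Of 18255 genes measured in THP-1 cells, 117 had a lower signal after LPS and stayed low when the compound LC53 was given before it. The genes encode proteins of immature myeloid cells (the transcription factor MYB, the receptor FLT3 and the granule enzyme MPO), survival and death proteins (BCL2, BIK), G protein-coupled receptors (GPR18, P2RY2, CYSLTR1), immune signalling proteins (STING1, PTPN22, NLRC3) and 25 enzymes, MPO among them. The median level over the members, taken separately for each group, was 37.2% of resting with LPS and 35.0% with LC53 plus LPS. Taken gene by gene, the median log2 difference between LC53 plus LPS and LPS was 0.08, and its sign was not settled. It was under 0 in 52 of the 117 members. The members were chosen on these same values. They had a mean probe intensity of 100 or more in resting cells, a log2 difference of -1.2 or lower between LPS and resting cells, and a log2 difference under 0.4 between LC53 plus LPS and LPS cells. Both resting arrays had to lie above the other 4, and symbols beginning with SLC (solute carriers) were left out. Each gene was read from 1 probe. All 3 contrasts were thus used in the choice, and the values below describe the members and test nothing about them.

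THP-1 is an established human monocytic leukaemia line, a single line grown here in medium with 0.5% serum. RNA was labelled with Cy5 and measured on 6 single-colour arrays, 2 for each of 3 groups. The resting group was given neither LPS nor LC53. The LPS group was given lipopolysaccharide at 50 ng/ml for 8 h, and the third group 5 µM LC53 15 min before the same LPS treatment. LC53 without LPS is not analysed here, and nothing in the labels tells whether a group's arrays stem from different cultures. The spread between them may therefore be technical. Intensities are in the arbitrary units deposited for each probe, which do not allow one gene's level to be set against another's. The number of arrays limits the precision of every value. In a bulk culture, fewer cells of one kind and less RNA per cell cannot be told apart.

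Lipopolysaccharide is sensed by TLR4 and switches monocytes to an inflammatory programme through NF-kB, MAP kinases and interferon. Alongside the genes that rise, monocytic cells exposed to LPS also lower many transcripts of their resting state. Some receptors that guide migration and some enzymes of intermediary metabolism are among them. A lower transcript level can follow from less transcription or from faster decay of the RNA, which arrays of total RNA do not separate.

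The steps of the selection show how the group sits among the genes lowered by LPS. Of 10906 genes with a resting mean of 100 or more, 367 had a log2 difference of -1.2 or lower with LPS. The LC53 plus LPS minus LPS difference was under 0.4 in 126 of the 367. Both resting arrays lay above the other 4 in 122 of these, and 5 of the 122 were solute carriers. By contrast, 224 genes other than solute carriers met the conditions on LPS and resting cells but had an LC53 difference of 0.4 or more, and at their median the level was 34.9% of resting with LPS and 60.4% with LC53 plus LPS. No gap separated the 2 sets: 45 of the genes lowered by LPS had an LC53 difference from 0.3 to under 0.5, and 21 of the members lay from 0.3 to under 0.4. ALDH5A1 (0.3989), BCL2 (0.387) and KBTBD11 (0.382) were the members closest below the limit, and CYP46A1 (0.401), PIERCE1 (0.406) and IRAG2 (0.408) lay just above it. At the limit on the LPS difference, MYO1E (-1.2025), FMO5 (-1.2147) and ACACB (-1.2154) were inside and C20orf197 (-1.1996), MPP3 (-1.1984) and NTHL1 (-1.1904) outside. At the limit on resting intensity, LRRC20 (102), EPHA1 (103) and KRT12 (106) were inside and TMEM156 (96.9), CCBP2 (92.0) and RASGRP4 (82.7) outside.

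**Figure D1:**
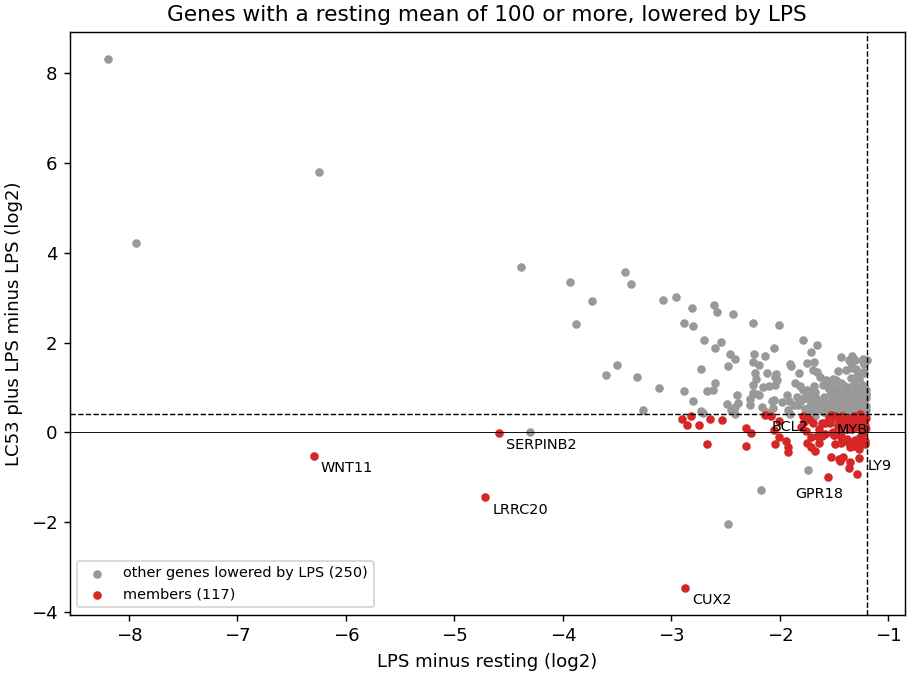
The log2 difference between LPS and resting cells (horizontal axis) against that between LC53 plus LPS and LPS cells (vertical axis) for the 367 genes with a resting mean of 100 or more that LPS lowered, with the 117 members in red, the other 250 genes in grey, and dashed lines at the limits of -1.2 and 0.4. The members form the lower edge of a continuous cloud, and a few grey points under the upper dashed line are solute carriers or genes whose resting arrays did not lie above the other 4. Points far to the left or far down, WNT11, LRRC20 and CUX2 among them, include genes with readings near 0, whose place depends on the floor of 1 used for the log.

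Over the 117 members the median log2 difference was -1.44 for LPS against resting, with quartiles of -1.71 and -1.31, beside -0.07 over all 18255 genes. In the contrast of LC53 plus LPS with LPS the median was 0.08, beside 0.16 over all genes, and in that of LC53 plus LPS with resting cells it was -1.53, beside 0.10. The first and second of these comparisons share the LPS arrays. In a limma fit over all 31741 probes, with Benjamini-Hochberg adjustment, 108 of 117 members were called lower with LPS, where 2.5% of all probes were. With LC53 plus LPS against resting, 84 members were called lower, beside 1.21% of probes. In these contrasts 0 members were called higher, where 4.02% and 1.75% of probes were. Since the rule used these contrasts, nothing is read from either count. Leaving out 1 array leaves a group with a single array, which is then assumed to vary like the other groups, so only medians are given. The median LPS difference then stayed between -1.59 and -1.35. In the contrast of LC53 plus LPS with resting cells the medians were -1.56 to -1.48. The 9 members not called with LPS were CUX2, GYG2, ATP2B4, DACH1, PTK2B, MEF2D, SMIM10, SPIN3 and RHBDL1.

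Between LC53 plus LPS and LPS alone the members went both ways. Both LC53 arrays lay below both LPS arrays in 27 members (23.1%), beside 17.1% of all genes. They lay above both LPS arrays in 33 members (28.2%), beside 31.1% of all genes, and in the other 57 the arrays of the 2 groups overlapped. The rule had capped the upper side, and nothing is read from these shares. In the limma fit 0 members were called in either direction for this contrast after Benjamini-Hochberg adjustment, where 1.94% of all probes were called lower and 0.687% higher. At an unadjusted p under 0.05, 8 members were lower and 0 higher, where 8.24% of all probes were lower and 10.2% higher. With quantile normalization 5 members were called lower (6.63% of probes) and with cyclic loess 6 (7.53%). With median centring 3 were called lower (5.51%), with an offset of 50 also 3 (4.0%), and without dim probes 3 (5.58%). GPR18 was among them under all 5 of these settings, LY9 under 4, and SPEF2 under the 3 normalizations.

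**Figure D2:**
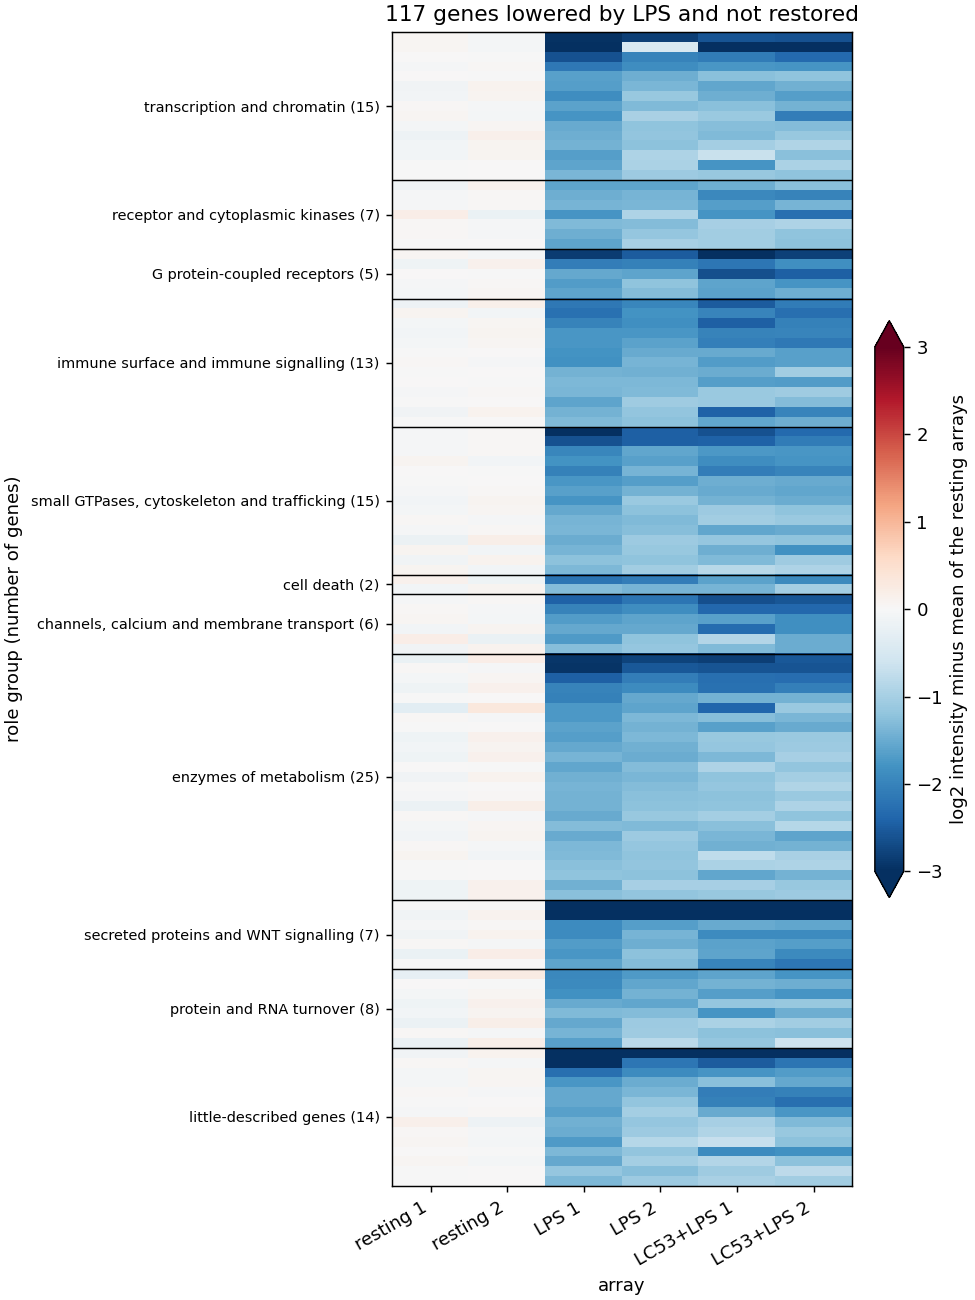
Log2 intensity of each of the 117 members (rows, grouped by role, with the steepest fall with LPS at the top of each group) minus its mean over the resting arrays, on each of the 6 arrays (columns); the colour scale ends at -3 and 3. Both LPS and both LC53 plus LPS columns are blue, LPS replicate 2 is paler than LPS replicate 1 for many members, and CUX2 stands out as pale on LPS replicate 2 alone.

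The array scale bears on these values. The median probe intensity over all probes was 84.4 on LPS replicate 1 and 124.0 on LPS replicate 2, against 99.2 to 112.7 on the other 4 arrays. Over the members alone the median was also lower on LPS replicate 1 than on LPS replicate 2, at 207 and 268. It was 686 and 704 in resting cells and 235 and 232 with LC53 plus LPS. Without LPS replicate 1 the members' median LC53 difference was -0.08, and without LPS replicate 2 it was 0.21, so its sign was not settled. Centring each array on its median moved every LC53 plus LPS minus LPS difference by -0.13, and single differences smaller than that have no settled direction. THP-1 identity was checked on 15 monocyte and myeloid markers, of which 0 read under 50 on any array. Their summed intensity was 195380.1 to 215177. ELANE and AZU1 are among them and read at or near the top of the scale, so the sum says little about the others. The median marker read 3035 and 3457 in resting cells, 2651 and 3084 with LPS, and 2432 and 2484 with LC53 plus LPS. MPO, a member, is 1 of the 15. With LPS 1 of these markers was called lower and 2 higher. Of 23 markers of other cell types, 9 to 13 read under 50, and with LPS 0 were called lower and 3 higher. Their intensities summed to 2005 and 2301 in resting cells, 2676 and 3409 with LPS, and 2378 and 2894 with LC53 plus LPS, and the part of this difference in the results was not tested.

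The functional groups used from here on were made after the member names were seen, to order the description. Genes of the immature myeloid state come first. MYB encodes the transcription factor that keeps haematopoietic progenitors dividing and undifferentiated. Its probe read 22317 and 22186 in resting cells, 7177 and 8090.5 with LPS, and 9402 and 9573 with LC53 plus LPS. Both LC53 arrays lay above both LPS arrays, yet at 42.6% of the resting level. The log2 difference was -1.55 ± 0.18 (SE) between LPS and resting cells and 0.32 between LC53 plus LPS and LPS cells. FLT3, the receptor tyrosine kinase for FLT3 ligand on progenitors, read 7643 and 8064 in resting cells, 2983 and 3042 with LPS, and 2482 and 2978 with LC53 plus LPS. The groups given LPS nearly touched, at 2978 and 2983, and neither reached 40% of the resting level. MPO, the myeloperoxidase of neutrophil and monocyte granules, read 272 and 297, then 115 and 113, then 119 and 156, in the same order of groups. Both MPO arrays with LC53 plus LPS lay above the LPS pair and well under the resting pair.

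Of 19 measured genes on a list of granule proteases and precursor genes, 4 were members (MPO, MYB, FLT3 and SERPINB2). In the limma fit, 7 of the 19 were called lower with LPS and 1 higher, with a median difference of -0.81, where 3.10% of all genes were called lower and the median was -0.07. The list was written with earlier results of these data known. Other genes on the list behaved differently after LC53. MS4A3, a membrane protein of granulocyte and monocyte precursors, read 29825 and 27417 in resting cells, 6127 and 7078 with LPS, and 15850 and 16841 with LC53 plus LPS, so its signal came part of the way back. KIT, the stem cell factor receptor, went the other way, from 3162 and 3479 through 1779 and 1905 to 148 and 153. ELANE and AZU1, which encode granule proteins, read at or near the top of the scale on all 6 arrays, so their differences are not given.

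SERPINB2 encodes plasminogen activator inhibitor 2, a protease inhibitor of monocytes. It read 12076 and 13804 in resting cells, 554 and 519 with LPS, and 503 and 563 with LC53 plus LPS. The 4 arrays given LPS overlapped fully, at 4.15% and 4.12% of the resting mean in the 2 groups. Its second probe read 8604 and 9646, then 337 and 412, then 388 and 407, and gave a log2 difference of -4.61 with LPS, next to -4.59 on the chosen probe.

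**Figure D3:**
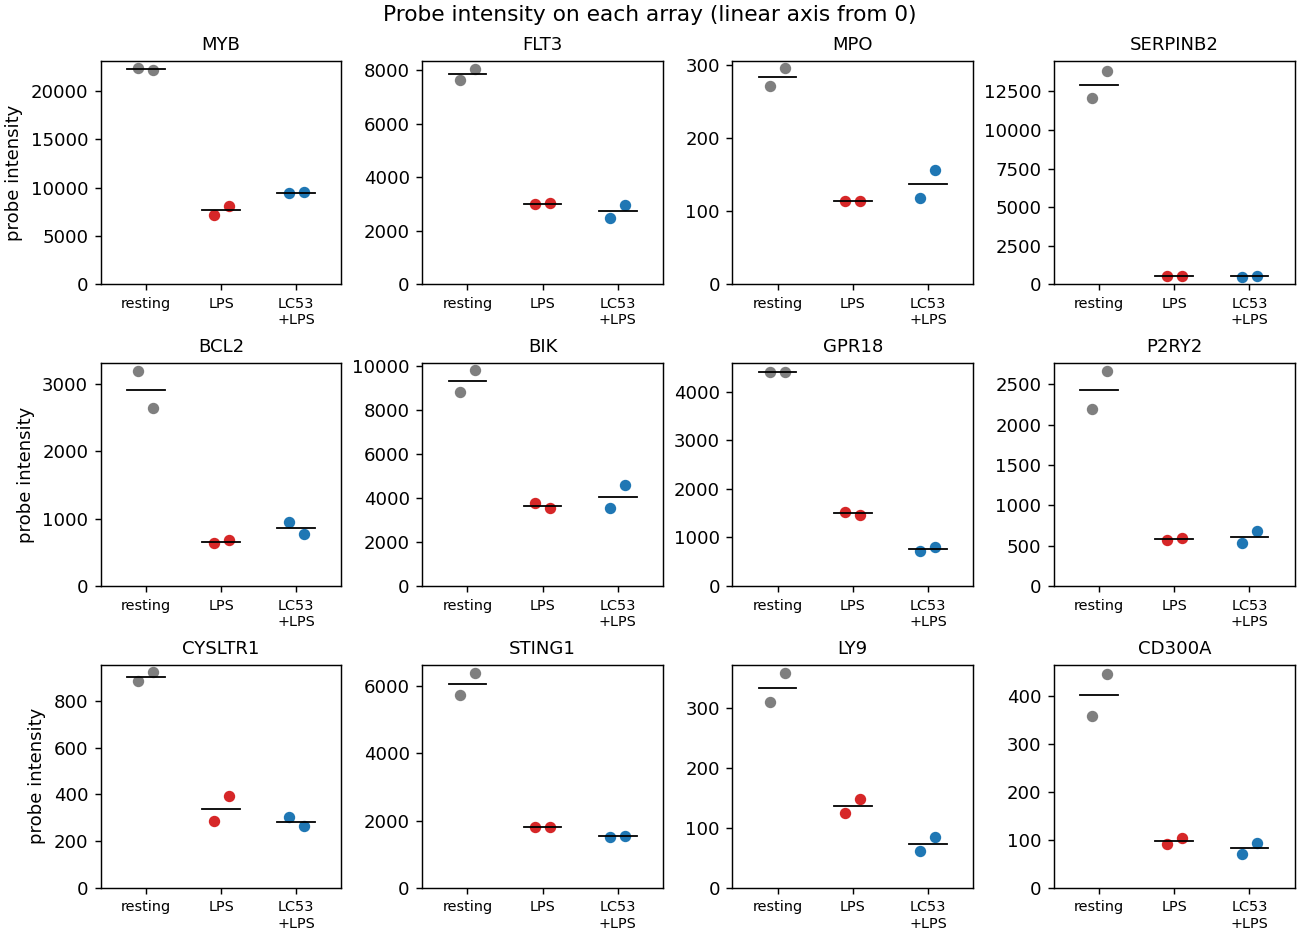
Probe intensity of 12 members on each of the 6 arrays (points) with the mean of each group of 2 (lines), on linear axes that start at 0 and differ between genes. In every panel the resting pair lies above the other 4 arrays; MYB and BCL2 are slightly higher with LC53 plus LPS than with LPS, and GPR18 and LY9 are lower still.

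Promoter letters of a few such genes are shown so that what lies before the start of each can be seen, since the group was chosen for a shared fall with LPS. The stretches are the 250 bases before the first transcript start listed by RefSeq (GRCh38.p14), 5′ to 3′ on the strand of the gene, in lower case with matches to the searched motifs in capitals. SERPINB2 lies at chr18:63887455-63887704 (plus strand), with TGANTCA (AP-1, the FOS and JUN factors) and TATAAA (the TATA box) in capitals. MYB lies at chr6:135181058-135181307 (plus strand), with GGGCGG (the GC box). FLT3 lies at chr13:28100577-28100826 (minus strand), with CCAAT, the kappa-B motif and CACGTG (the E-box), in that order. BANK1, which encodes a scaffold protein known from B cells and has 2 listed starts, lies at chr4:101790480-101790729 (plus strand), with GAGGAAG (PU.1, the myeloid ETS factor) once on each strand.
SERPINB2: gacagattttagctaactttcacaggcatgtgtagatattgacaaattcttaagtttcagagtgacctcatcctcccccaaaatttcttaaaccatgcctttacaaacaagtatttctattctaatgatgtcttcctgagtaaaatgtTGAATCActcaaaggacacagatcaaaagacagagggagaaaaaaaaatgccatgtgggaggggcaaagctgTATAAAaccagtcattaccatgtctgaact
MYB: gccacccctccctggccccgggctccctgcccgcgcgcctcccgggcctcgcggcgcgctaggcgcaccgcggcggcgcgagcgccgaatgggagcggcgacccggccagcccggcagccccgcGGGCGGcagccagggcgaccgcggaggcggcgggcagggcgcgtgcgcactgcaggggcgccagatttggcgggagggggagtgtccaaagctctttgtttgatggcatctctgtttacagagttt
FLT3: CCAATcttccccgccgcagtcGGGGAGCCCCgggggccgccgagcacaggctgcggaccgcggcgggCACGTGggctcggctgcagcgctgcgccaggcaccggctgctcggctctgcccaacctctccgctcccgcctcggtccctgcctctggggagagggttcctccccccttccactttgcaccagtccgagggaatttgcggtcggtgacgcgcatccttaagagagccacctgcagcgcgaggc
BANK1: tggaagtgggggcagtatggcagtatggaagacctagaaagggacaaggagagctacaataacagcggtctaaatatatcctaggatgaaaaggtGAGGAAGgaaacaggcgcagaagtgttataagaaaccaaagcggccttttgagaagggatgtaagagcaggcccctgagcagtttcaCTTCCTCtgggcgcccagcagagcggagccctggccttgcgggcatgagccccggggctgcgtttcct

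Promoters were found for 93 of the 117 members in that table. Those not found were WNT11, IRX3, RAB33A, FAM135B, P2RY2, TSPAN32, NCALD, ATXN3, STING1, FBXO16, SELPLG, KBTBD11, P3H4, NELL2, RAB44, BIK, PTK2B, ITGAL, CD37, PYCR1, MPO, TMEM71, LY9 and TMEM54. Each motif was searched on both strands from 250 bases before to 50 bases after the first listed start. GAGGAAG was present in 16 of 93 member promoters (17.2%), beside 14.7% of 9040 genes with a resting mean of 100 or more and 13.4% of all 27305 genes in the table. The kappa-B motif was present in 11.8% of member promoters, beside 12.7% and 10.8%. TGANTCA was present in 5.38% of members, beside 4.58% and 7.76%, CACGTG in 6.45%, beside 10.4% and 7.43%, and TGACGT (the core of the cyclic AMP response element) in 6.45%, beside 11.7% and 8.32%. GGGCGG was present in 63.4%, beside 68.4% and 44.6%, TATAAA in 6.45%, beside 6.17% and 12.0%, and CCAAT in 30.1%, beside 36.9% and 35.7%. A match describes letters and is neither a site nor a cause, and TGACGT can overlap CACGTG by a few bases.

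Of the 2 members of cell death pathways, BCL2 encodes the founding survival protein of its family and BIK a pro-death protein of the same family. BCL2 read 3185 and 2643 in resting cells, 632 and 686 with LPS, and 956 and 776 with LC53 plus LPS. Both LC53 arrays were above both LPS arrays, with a log2 difference of 0.39 that put the gene at the edge of the rule. BIK read 8837 and 9844, then 3761 and 3550.0, then 3542 and 4576. The LPS and LC53 plus LPS arrays of BIK overlapped, and the levels were 39.1% and 43.5% of resting.

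The 5 G protein-coupled receptors had a median log2 difference of -1.56 with LPS and of -0.24 with LC53 plus LPS against LPS. In 0 of them did both LC53 arrays exceed both LPS arrays, where that held for 28.2% of all members and 31.1% of all genes. Since the rule capped the LC53 difference from above, nothing is read from this count. GPR18 is a receptor of haematopoietic cells described as responding to N-arachidonylglycine. It read 4413 and 4398 in resting cells, 1519 and 1473 with LPS, and 713 and 803 with LC53 plus LPS. The 3 groups of GPR18 were fully separate, with LC53 plus LPS lowest, at 17.2% of resting. The LC53 difference was -0.98, with a limma adjusted p of 0.0562 that misses the threshold. P2RY2, a receptor for extracellular ATP and UTP, read 2191 and 2661, then 569 and 593, then 537 and 678. CYSLTR1, a receptor for cysteinyl leukotrienes, read 886 and 923, then 284 and 391, then 301 and 266. In both receptors the LC53 and LPS arrays overlapped. P2RY8, a receptor known from germinal centre B cells, read 3270.4 and 3491, then 1137 and 1375, then 1102 and 1233, and NTSR1, the neurotensin receptor, 204 and 187, then 27.1 and 34.6, then 23.6 and 27.9. Of 49 measured genes on a list of chemotactic and other receptors with RGS proteins, 2 were members (P2RY2 and CYSLTR1), and 4 were called lower and 10 higher with LPS, where 3.10% of all genes were lower and 4.46% higher.

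The 13 immune surface and signalling genes had a median log2 difference of -1.61 with LPS and -0.23 for LC53 plus LPS against LPS. In 6 of the 13 both LC53 arrays lay below both LPS arrays, and in 1 (ITGAL) above, where over all genes 17.1% lay below and 31.1% above. Over all members 23.1% lay below and 28.2% above. With the upper side capped by the rule, nothing is read from these counts. STING1 encodes the adaptor that carries the signal of cyclic dinucleotides from cytosolic DNA sensing. It read 5729 and 6396 in resting cells, 1806 and 1801 with LPS, and 1517 and 1532 with LC53 plus LPS. The 2 groups given LPS were separate, with LC53 plus LPS the lower, at 25.2% of resting. LY9, a SLAM family receptor, read 309 and 357, then 125 and 147, then 61.6 and 83.7, and its LC53 difference of -0.92 had an adjusted p of 0.12. Of its 2 other probes, one read 168 and 153, then 83.3 and 81.7, then 71.6 and 78.1, and the dimmer one 43.6 and 54.5, then 44.8 and 89.4, then 92.4 and 94.8. Their LC53 differences were -0.14 and 0.56, so the probes of LY9 did not give the same answer for LC53.

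Several members of this group are inhibitors of immune signalling. PTPN22, a phosphatase that restrains antigen receptor signalling, read 782 and 841, then 202 and 226, then 149 and 198, and a second probe gave an LPS difference of -2.18, next to -1.92. NLRC3, a NOD-like receptor described as a negative regulator, read 329 and 359, then 102 and 113, then 83.3 and 78.1. CD300A, an inhibitory receptor of myeloid cells, read 359 and 448, then 90.6 and 104, then 70.7 and 93.7, and was the 1 member among 32 measured monocyte identity genes. In all 3 the resting arrays stood far above the rest, and the levels with LC53 plus LPS were 20.4% to 23.5% of resting. BANK1 read 2472 and 2502, then 992 and 1064, then 851 and 896, and TRAF3IP3, an adaptor that binds TRAF3, 7148 and 7084, then 2785 and 2792, then 2250.4 and 2233.

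Adhesion molecules and membrane proteins of leukocytes made up the rest of the group. ITGAL, the alpha chain of the integrin LFA-1, read 4225 and 4375, then 1672 and 1714, then 1991 and 2039. SELPLG, the ligand of P-selectin, read 417 and 403, then 116 and 157, then 128 and 133. ITGAL was slightly higher with LC53 plus LPS than with LPS and SELPLG overlapped. They were the 2 members among 39 measured adhesion, integrin and semaphorin genes, of which 3 were called lower and 5 higher with LPS (3.10% and 4.46% of all genes). LAMP5, a lysosome-associated membrane protein, read 9763 and 9944, then 2865 and 3474, then 3457 and 3179, with overlap of the 2 groups given LPS. With LPS, CD37, a leukocyte tetraspanin, fell to 40.4% of resting and TNFSF14, the cytokine LIGHT, to 37.3%. TSPAN32, another tetraspanin, read 874 and 768, then 174 and 238, then 207 and 172. Its neighbour on chromosome 11, C11orf21, overlaps it in the RefSeq annotation and was also a member, at 487 and 503, then 159 and 242, then 175 and 148. The arrays do not tell how far signal of the one could enter the probe of the other, which was not tested. MYB and PDE7B on chromosome 6, with 1 coding gene between them, were the only other pair of members found with at most 1 coding gene between them.

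The 15 transcription and chromatin genes had a median LPS difference of -1.47 and a median LC53 difference of 0.09. IRX3, a homeobox factor, read 4246 and 3922 in resting cells, 519.8 and 577 with LPS, and 676 and 666 with LC53 plus LPS. ONECUT2, another homeobox factor, read 599.9 and 622, then 137 and 168, then 183 and 179.6, and POU4F2, a POU domain factor known from retinal neurons, 629 and 611, then 101 and 155, then 146 and 123. On these probes IRX3 and ONECUT2 were a little higher with LC53 plus LPS than with LPS, and stayed under 30% of resting. Another ONECUT2 probe fell less with LPS, with a log2 difference of -0.81. It read 334 and 339, then 160 and 229, then 247 and 287. CUX2, a homeobox factor of cortical neurons, read 126 and 117 in resting cells, but 3.12 and 87.5 on the LPS arrays and 0.00 and 2.23 with LC53 plus LPS. The LPS arrays of CUX2 did not repeat each other, and 3 of its 4 values in cells given LPS were near 0, so no fold is given. The histone deacetylase gene HDAC4 fell to 38.9% of resting with LPS and the AP-1 subunit gene FOSL2 to 40.2%. Another FOSL2 probe gave an LPS difference of -0.54, next to -1.32 on the chosen probe. MEF2D, a partner of class II histone deacetylases, stood at 42.3% without being called. ZNF556, TRERF1, NACC2, SETDB2 and CREB3L4 had LPS differences from -1.51 to -1.23, and SPIN3 and DACH1, at -1.26 and -1.37, did not pass.

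Among the 7 kinase genes, RPS6KA4, which encodes the MAP kinase-activated kinase MSK2, read 583 and 699, then 214 and 213, then 231 and 266. MAPKAPK3, a kinase downstream of p38, read 429 and 439.7, then 146 and 219, then 209 and 186. Both stayed under 46% of resting with LC53 plus LPS. RET, the receptor tyrosine kinase for GDNF family ligands, read 1585 and 1522, then 567 and 699, then 756 and 674. EPHA1, an ephrin receptor, read 100.2 and 106, then 37.5 and 39.4, then 27.2 and 25.7, and STK32C, a little-studied serine/threonine kinase, 2227 and 2148, then 875 and 885, then 1089 and 1148. EPHA1 was lower and STK32C higher with LC53 plus LPS than with LPS, with no overlap. PTK2B, the focal adhesion kinase PYK2, read 196 and 148, then 50.0 and 89.4, then 49.8 and 35.7, and was not called with LPS.

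The 25 metabolic enzymes were the largest group. Both LC53 arrays exceeded both LPS arrays in 13 of 25 and fell below them in 3, with a median LC53 difference of 0.21. Over all genes the shares were 31.1% above and 17.1% below, and with a resting mean of 100 or more 35.2% and 20.3%. The difference between this group and the other members was not tested. QPRT, which makes the NAD precursor nicotinate mononucleotide from quinolinate, read 14202 and 15756 in resting cells, 5146 and 5517 with LPS, and 6642 and 6983 with LC53 plus LPS. ALDH5A1, which oxidizes succinic semialdehyde, read 1333 and 1174, then 501 and 545, then 740.2 and 642. Both groups of arrays were separate, with LC53 plus LPS at 45.5% and 55.1% of resting. The mitochondrial enzymes FDXR (ferredoxin reductase) and PYCR1 (proline synthesis) stood at 48.1% and 47.6% with LC53 plus LPS, from 37.4% and 39.7% with LPS. SPTLC2, a subunit of the enzyme that starts sphingolipid synthesis, went from 42.8% to 52.2%.

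Other enzymes went either way or overlapped between the groups given LPS. DHRS9, a retinol dehydrogenase of the short-chain family, read 5145 and 6822, then 780.2 and 861, then 839.8 and 1009. TMT1A and TMT1B, paralogous thiol methyltransferase genes on chromosome 12, fell together. TMT1A read 1878 and 1814, then 242 and 314, then 309 and 307, and TMT1B 3138 and 3379.5, then 596 and 770.2, then 676 and 672. Whether the probes of these paralogs can pick up each other's RNA was not tested. CDA, the cytidine deaminase, read 334 and 404, then 91.7 and 99.0, then 77.9 and 88.2, lower with LC53 plus LPS than with LPS on both arrays. PDE7B, a cyclic AMP phosphodiesterase, read 557 and 571, then 139 and 193, then 211 and 212, higher on both. ACACB, an acetyl-CoA carboxylase of fatty acid metabolism, fell to 43.4% and PLD1, a phospholipase, to 35.3% of resting with LPS. FMO5, NOS3, CYP2E1, RENBP, GALNT12 and P3H4 were among those slightly higher with LC53 plus LPS. PIPOX and CHST12 were, with CDA, those that were lower. The FMO5 difference of 0.10 is smaller than the shift from median centring, so its direction is not settled. Between the 2 groups given LPS the arrays overlapped for OSBPL5, MMACHC and STEAP3, which were called with LPS, and for GYG2, which was not.

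Of the 6 genes of channels, calcium and membrane transport, 4 were lower with LC53 plus LPS than with LPS on both arrays and 0 higher. Over all members 23.1% were lower and 28.2% higher, and over all genes 17.1% and 31.1%. The rule capped the LC53 difference from above, and nothing is read from these counts. CACNA2D3, an auxiliary subunit of voltage-gated calcium channels, read 7186 and 7615 in resting cells, 1369 and 1629.8 with LPS, and 1183 and 1258 with LC53 plus LPS. NCALD, the neuronal calcium sensor neurocalcin delta, read 1856 and 1773, then 455 and 499, then 352 and 355. The potassium channel genes KCNQ5 and KCNMB1 also lay lower on both LC53 arrays, at 24.0% and 37.6% of resting. ABCC6, a transporter of the ABC family, overlapped between the 2 groups, as did ATP2B4, a plasma membrane calcium pump, whose LPS call failed.

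The 15 genes of small GTPases, cytoskeleton and trafficking had a median LC53 difference of 0.02. RAB33A, a small GTPase of the Rab family, read 578 and 613, then 64.6 and 109.6, then 97.8 and 118. MYADM, a myeloid-associated membrane protein, read 446 and 469, then 75.0 and 83.7, then 85.2 and 107. TPM1, the actin-binding tropomyosin 1, read 6322 and 6344, then 1891 and 2017, then 2289 and 2237, and PDLIM1, a cytoskeletal adaptor with PDZ and LIM domains, 7567 and 7135, then 2793 and 2934, then 3561 and 3379.9. MYADM, TPM1 and PDLIM1 were each a little higher with LC53 plus LPS than with LPS. RIN1, APBB1IP and RAP1GAP2, which act on Rab5, Rap1 and Rap1 respectively, stood at 43.8%, 32.3% and 28.3% of resting with LC53 plus LPS. MYO1E, an unconventional myosin, and SH2D3C, an adaptor, were higher on both LC53 arrays, SCAMP5, a vesicle protein, was lower on both as was APBB1IP, and MYOZ1, KRT12, FRMD3 and RAB44 overlapped.

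Among secreted proteins and WNT signalling, WNT11, a ligand of non-canonical WNT signalling, read 114 and 113 in resting cells, 2.08 and 0.00 with LPS, and was listed at 0 on both LC53 plus LPS arrays. No fold is given for WNT11, since its low arrays were raised to 1 ahead of the log. It was the 1 member among 35 measured genes of WNT, TGF-beta and BMP signalling, of which 1 was called lower and 5 higher with LPS (3.10% and 4.46% of all genes). FRAT1, an inhibitor of GSK3 in the WNT pathway, read 631 and 672, then 175 and 207, then 227 and 219.8, and a second probe gave -1.39 on the log2 scale. THBS4, a thrombospondin, read 454 and 596, then 154 and 222, then 174 and 139, and NELL2, a secreted glycoprotein, 265 and 265, then 88.5 and 107, then 67.0 and 59.1. NELL2 was lower with LC53 plus LPS than with LPS, and THBS4 overlapped, as did LRRC17, while ADISSP was lower on both LC53 arrays. The remaining 22 members, 8 of protein and RNA turnover and 14 little described, had LPS differences of -1.22 or lower. LRRC20 read 94.2 and 109.9, then 5.21 and 2.88, then 1.81 and 1.12, near 0 in both groups given LPS, and no fold is given. With an offset of 50 its LPS difference was -1.49. SPEF2, TRPC5OS and FAM78A were lower with LC53 plus LPS than with LPS on both arrays, with log2 differences of -0.78, -0.59 and -0.58, and HSPB7, a small heat shock protein, with -0.31. KBTBD11, FBXO16, EXOSC5, FAM117B, FAM124B and NATD1 were higher on both. The arrays overlapped for ATXN3, AKAP7, CELF2, RHBDL1, FAM135B, SPATC1L, C11orf21, TMEM71, TMEM54, SMIM10 and LRRC45.

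A second look at the same genes comes from other probes of the members, on the same arrays. Of the 117 members, 38 had more than 1 probe, with 45 other probes. With LPS 42 of the 45 were below resting. In the 27 with a resting mean of 100 or more, the median LPS difference was -1.27, beside -0.09 over all genes with such a mean. Of the 27, 26 were below resting and 15 reached -1.2 or lower, and 11 of the 27 met the whole rule. The exception was ATXN3, which encodes the deubiquitinase ataxin 3: its chosen probe read 297 and 416, then 92.7 and 109, then 117 and 103, while its other probe read 107 and 106, then 99.0 and 148, then 112 and 85.9.

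The other probes also differed on whether LC53 brought the signal back. In 7 of the 27 the LC53 difference was 0.4 or more, which would have put the gene outside the group: RET, TTC7A, TPM1, MYADM, ONECUT2, TNFSF14 and FOSL2. The other RET probe read 263 and 313, then 62.5 and 86.5, then 155 and 135, a difference of 0.98 next to 0.18 on the chosen probe. For TTC7A, a scaffold of the phosphatidylinositol 4-kinase complex, the chosen probe read 2462 and 2894, then 1130.2 and 1162, then 1058 and 1284. Its other probe read 187 and 198, then 44.8 and 44.2, then 92.4 and 71.4, a difference of 0.87 next to 0.02. For these genes the probes fell on different sides of the LC53 limit and gave the same direction for LPS. The 2 LC53 differences of FOSL2 were close, at 0.404 and, on the chosen probe, 0.356, while its LPS differences were -0.54 and -1.32. Which transcripts each probe reads is not given in the sources used here. By contrast, for SERPINB2, P2RY2, PTPN22, SELPLG, FRAT1, PDE7B, MEF2D, CELF2, TRERF1 and FRMD3 at least 1 other probe met the whole rule.

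**Figure D4:**
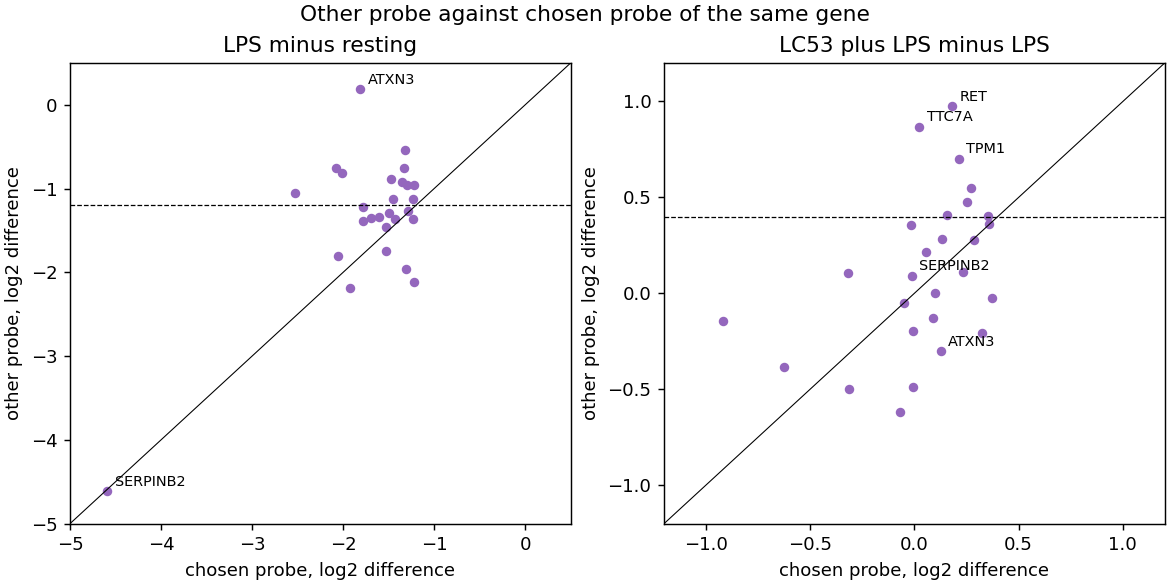
Log2 difference on the other probe (vertical axis) against that on the chosen probe (horizontal axis) for the 27 other probes with a resting mean of 100 or more, with LPS compared with resting cells (left) and LC53 plus LPS compared with LPS (right), with the line of equality and a dashed line at the limit of the rule. All but ATXN3 lie below 0 on the left, and 7 points lie above the dashed line on the right, with RET, TTC7A and TPM1 the highest.

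Several gene lists held no member. The lists are not whole pathways: RAB33A and RIN1, members described above with small GTPases, are not on the list named for them. Members were 117 of 18255 genes, so a list of 16 to 43 genes may hold none for its size alone, and nothing is read from this. None was found among 18 measured circadian clock genes, 16 of sterol synthesis and uptake, 24 of lipid efflux and scavenging, 43 of phosphoinositide and small GTPase signalling, 42 of the cell cycle and DNA replication, 34 of lysosome and autophagy, or 33 repressors and quiescence factors. With LPS the limma fit called 1 circadian gene lower and 2 higher, 1 sterol gene lower and 0 higher, and 3 lipid efflux genes lower and 0 higher. It called 2 phosphoinositide and GTPase genes lower and 4 higher, 0 cell cycle genes lower and 1 higher, 0 lysosomal genes lower and 4 higher, and 4 repressor genes lower and 3 higher. Of the 32 monocyte identity genes 1 was called lower and 2 higher. Over all genes, 3.10% were called lower and 4.46% higher with LPS. The members lay on 23 chromosomes, with at most 11 on any 1 of them, and all 117 were annotated as protein coding, beside 95.7% of all genes.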

How the data were processed

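RNA of THP-1 cells was measured on 6 single-colour Cy5 arrays, 2 per group, as the labels group them. The deposited values are linear probe intensities, and they are whole-number multiples of 1 step per array for at least 99.6% of probes (tolerance 0.02). The authors' scanner, background correction and normalization are not given in the sources used here. No probe was left out: 31741 were fitted. Of these, 24658 had a single symbol, 1002 several and 6081 none, and 2177 symbols were updated through RefSeq. The probe with the highest mean intensity stood for each of 18255 genes. Values under 1 were set to 1 before log2, and arrays were used as deposited.

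Differences are of group means of log2 values. The fit was made with limma 3.58.1 in R 4.3.3 (1 mean per group, moderated 2-sided test, Benjamini-Hochberg over all probes, threshold 0.05), with Python 3.11.15, pandas 2.3.3 and numpy 2.4.6 for tables. The fit was also run on simulated data with independent normal noise and no shift between arrays, and nothing is read from that run. The members, gene lists and alternatives were chosen with earlier results of these data known. Genes named were those with the 20 lowest LPS differences, the 10 highest resting intensities, the 8 lowest and 8 highest LC53 differences, the genes at each limit, list members and members whose other probe went the other way, with others to describe a functional group. The lists on which results are given numbered 14, of which 2 are markers. Alternatives were other normalizations, an offset of 50, a filter on dim probes, a replicate block and leaving out each array.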

Additional observations from a re-analysis of the deposited data

How the results depend on the processing

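The number of genes that met the rule was 117 as reported and 80 to 148 under the other settings, except 52 where the LC53 limit was set at 0, which that limit's own construction explains. Under quantile normalization, median centring, cyclic loess and an offset of 50 as well as on the deposited scale, 70 members met it. All 500 LPS differences recomputed for the 50 named members stayed under 0. The rule had already placed both resting arrays above the other 4, so nothing is read from this. The median LPS difference was -1.27 with an offset of 50, and -1.59 to -1.35 leaving out 1 array. The median difference between LC53 plus LPS and resting cells was -1.60 with quantile normalization, -1.62 with median centring and -1.25 with the offset, and -1.56 to -1.48 leaving out 1 array. The median LC53 plus LPS minus LPS difference was -0.08 to 0.21 leaving out 1 array, 0.05 with quantile normalization, -0.05 with median centring and -0.01 with cyclic loess. Leaving out 1 array, 13 to 108 members were called lower with LPS in limma, 3 to 100 for LC53 plus LPS against resting and 0 to 2 for LC53 plus LPS against LPS. For the last contrast, 5 were called lower with quantile normalization, 3 with median centring, 6 with cyclic loess, 3 with the offset and 3 without dim probes, and 0 were called higher under any setting run. The cause of these changes was not tested. Each fit without 1 array has a group with a single array, and the share of all probes called lower also changed between these fits. Nothing is read from the member counts of these fits. The replicate numbers are only shared numbers: the correlations of same-numbered deviations were 0.06, 0.20 and -0.08. With a replicate block 94 members were called lower with LPS, 52 with LC53 plus LPS against resting and 0 with LC53 plus LPS against LPS. The share of all probes called with the block is not given here, and nothing is read from these counts.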
